A study of Homo sapiens with 6 samples.

Results

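The poly(C)-binding KH proteins are the 4 αCP proteins encoded by PCBP1, PCBP2, PCBP3 and PCBP4, and their larger relative hnRNP K, encoded by HNRNPK. Its members were taken as the rows of the deposited expression table that carry these 5 gene symbols, among 57150 genes in all, and each symbol had 1 row. By its labels, the table compares K562, an established human erythroleukemia line, 72 h after transfection with siRNAs against αCP1 and αCP2 together (3 cell pools, labelled KD) or with control siRNAs (3 cell pools, labelled CTRL). A figure legend of the study describes its controls CTRL-1 and CTRL-2 as aimed at another mRNA, GLD-2, which encodes a poly(A) polymerase. As labelled, all pools were transfected cells of the same line, and RNA from each pool was sequenced. Some values below go against these labels: the KD column held more PCBP2 and nearly as much PCBP1 as the CTRL column, and defining erythroid genes were listed at 0. U2AF2, which encodes the splicing factor U2AF65 and is not a labelled target, was far lower in the KD column, at 13.0 FPKM against 85.3. Whether the table holds other cells than labelled, or another pairing of names with values, was not tested, and every level and ratio below carries that limit. The table holds 1 value per gene and group, so the spread between pools was not available and no difference below carries a p-value. Estimated counts summed to 13699340 in the KD column and 11680567 in the CTRL column.

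KH domains are compact folds that hold a few unpaired bases of RNA or DNA, and in this family 3 of them recognise runs of cytosine. PCBP1 and PCBP2 encode αCP1 and αCP2, which stabilise C-rich messages such as α-globin mRNA, act on translation and splicing, and in PCBP1's case also carry iron to ferritin. PCBP1 is an intronless retrocopy of a PCBP2-like message, while PCBP3 and PCBP4 are paralogs with introns. HnRNP K binds the same kind of C-rich tract and works in transcription, splicing and translation.

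The coding sequences, read from GENCODE 44 transcripts on GRCh37 (MANE Select, the 1 transcript per gene agreed on as representative), show how close the 2 targeted genes are. PCBP1 (ENSG00000169564) lies on the plus strand at chr2:70314609-70316335, with 1 exon and 356 codons. PCBP2 (ENSG00000197111) lies on the plus strand at chr12:53845886-53874946, with 15 exons and 362 codons. They were identical at 83.9% of 1053 aligned coding bases and at 85.5% of 351 aligned amino acids. The longest stretch that they share without a mismatch has 33 bases, and 5 such stretches have 20 bases or more. The 93 bases around the longest one are shown because any reagent or read meant for both genes, or for 1 of them, meets this pattern of identity and difference. The siRNA that the study lists as αCP1/2-3 lies within these 93 bases. Its printed sequence matches PCBP1 throughout and PCBP2 at every base but the last, where PCBP1 has A and PCBP2 has G. Capitals mark the bases that differ, 9 before the shared stretch and 7 after it. The PCBP1 bases are coding bases 754 to 846, chr2:70315629-70315721. The PCBP2 bases are coding bases 766 to 858 and come from 3 coding exons between 53861056 and 53862592 of chromosome 12.
PCBP1: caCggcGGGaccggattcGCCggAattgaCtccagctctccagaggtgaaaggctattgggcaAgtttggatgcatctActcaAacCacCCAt
PCBP2: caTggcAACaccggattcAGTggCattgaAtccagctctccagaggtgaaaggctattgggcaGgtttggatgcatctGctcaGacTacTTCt

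The other αCP genes were further away. PCBP3 (ENSG00000183570; plus strand, chr21:47063608-47362368, 18 exons) was identical to PCBP2 at 74.9% of aligned coding bases and to PCBP1 at 74.0%. PCBP4 (ENSG00000090097; minus strand, chr3:51991470-52008032, 14 exons) was at 70.8% and 69.1%. HNRNPK (ENSG00000165119; minus strand, chr9:86582998-86595546, 17 exons) was at 60.7% and 61.7%, and at 36.1% and 35.4% in amino acids. A second stretch of 26 bases, at coding bases 286 to 311 of both PCBP1 and PCBP2, shows this order within the αCP genes. The stretch of 33 bases and another of 24 bases do not show it. At their best ungapped matches PCBP3 and PCBP4 differed from PCBP1 at 16 and 15 bases of the former and at 10 and 9 of the latter. In the 26 bases below, capitals again mark bases that differ from the sequence of PCBP1, 3 in PCBP3 and 8 in PCBP4. The positions are chr2:70315161-70315186, chr12:53853098-53853123, chr21:47329311-47329336 and, on the minus strand, chr3:51994269-51994294.
PCBP1: cccccggtcaccctgaggctggtggt
PCBP2: cccccggtcaccctgaggctggtggt
PCBP3: cccccAgtGacGctgaggctggtggt
PCBP4: ccTccAgtGaccctgCgCctTgtCAt

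Reads of 100 nt, mapped by the authors with up to 3 mismatches, could tell the members apart on this sequence. Of 1628 windows of 100 nt in the PCBP1 transcript, 0 matched another member within 3 mismatches, and the same held for all 3060 windows of PCBP2, 2183 of PCBP3, 2057 of PCBP4 and 2790 of HNRNPK. The most alike pair of 100-nt coding windows, without gaps, differed at 10 bases between PCBP1 and PCBP2 and at 11 between PCBP2 and PCBP3. HNRNPK differed from every αCP gene at 37 or more. The paralogs' values below were therefore not open to sharing of single full-length reads among the members, as far as these transcripts go.

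Pseudogenes were another matter for HNRNPK. Of its 2790 windows, 864 (31.0%) matched 1 of 5 HNRNPK pseudogenes within 3 mismatches, and 0 matched exactly. HNRNPKP2 held 2 estimated counts in the KD column and 26 in the CTRL column, and HNRNPKP4 held 13 and 25. These were at most 0.234% of HNRNPK's own count in the same column, and HNRNPKP1, HNRNPKP3 and HNRNPKP5 were listed at 0. For PCBP2, 0 of 3060 windows matched PCBP2P1 or PCBP2P3 within 3 mismatches, and PCBP2P1 held 1 and 2 counts.

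Levels are given as FPKM, the fragments per kilobase of transcript per 1000000 mapped fragments, which allows genes of different length to be compared. PCBP1 stood at 184 FPKM in the KD column and 188 in the CTRL column. PCBP2 had an FPKM of 531 and 342, the higher value in the KD column. HNRNPK had an FPKM of 401 and 381. The targeted genes are the check on the labels of a knockdown. Here PCBP2 was 1.55-fold higher in the KD column and PCBP1 was nearly level, so KD and CTRL stand only for the labels of the columns. The study describes separate checks of depletion on mRNA and protein, which were not analysed here. PCBP4, whose protein αCP4 is known from work on growth arrest and apoptosis downstream of p53, had an FPKM of 24.1 and 11.1. PCBP3 was listed at 0 in both columns, with a count of 0. A count of 0 has an exact Poisson 95% interval that reaches 3.69 counts. No fold was given where both columns held 3 counts or fewer. That limit equals 0.219 counts per 1000000 in the KD column and 0.257 in the CTRL column. PCBP3 mRNA was thus not detectable at this depth.

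**Figure D1:**
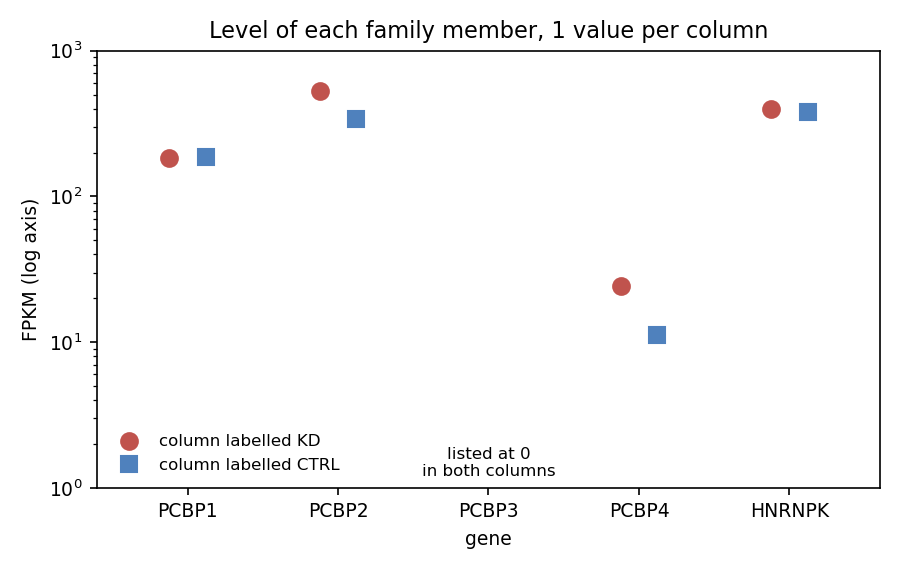
FPKM of each family member (log axis) in the KD column (circles) and the CTRL column (squares), 1 value per column and no error bar because the deposited table holds no per-pool values. PCBP1 and HNRNPK sat at nearly the same height in both columns, PCBP2 and PCBP4 were higher in the KD column, and PCBP3 was listed at 0.

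The estimated counts behind these levels differed widely, from 11445 for HNRNPK to 0 for PCBP3. PCBP1 had 3633 and 3696 estimated counts, with exact Poisson 95% intervals of 3516 to 3753 and 3578 to 3817. PCBP2 had 8483 and 5605, and HNRNPK had 11445 and 11098. PCBP4 had 549 and 250, with intervals of 504 to 597 and 220 to 283. Such intervals take the estimates as counted fragments and cover counting error only, not the spread between cell pools. By the study's mapping statistics, each single library had more mapped pairs than either column's sum of estimated counts. How the estimates were scaled is not given, so the width of these intervals is approximate. By FPKM, PCBP2 ranked 276 among all genes in the KD column and 326 in the CTRL column, HNRNPK ranked 351 and 296, and PCBP1 ranked 751 and 601. PCBP4 ranked 4306 and 6691. PCBP1, PCBP2 and HNRNPK were thus among the abundant messages of both columns, and PCBP4 was 7.63-fold below PCBP1 in the KD column and 16.9-fold below it in the CTRL column.

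The order of the 2 most abundant members was not the same in both columns, nor on both scales. By FPKM, PCBP2 was 1.32 times HNRNPK in the KD column and 0.898 times HNRNPK in the CTRL column. When counts were divided instead by the length of the MANE Select transcript, HNRNPK came first in both columns, with 3962 and 3841 counts per kilobase. PCBP2 then had 2685 and 1774 counts per kilobase, and PCBP1 had 2104 and 2140, so that PCBP1 stood above PCBP2 in the CTRL column. PCBP4 and PCBP3 stayed last but one and last on both scales. The order of PCBP1, PCBP2 and HNRNPK therefore depends on the scale that is used.

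The ratio of counts to FPKM can be set beside annotated length, but it is not itself a transcript length. Both values are separate estimates, and the length used by the authors' software was not available. PCBP1, with a single annotated transcript of 1727 nt, had 19.7 counts per unit of FPKM in both columns. PCBP2 had 16.0 and 16.4, which is 0.810 and 0.832 times the value of PCBP1, although its MANE Select transcript is 1.83 times as long. HNRNPK was at 1.45 and 1.48 times PCBP1 against an annotated 1.67, and PCBP4 at 1.15 and 1.14 against 1.25. The annotated coding and noncoding transcripts of PCBP2 run from 445 to 3159 nt. PCBP2 thus had fewer counts per unit of FPKM than PCBP1, although its MANE Select transcript is longer. Its share of the family also moved more between the 2 scales than that of any other member. The reason was not tested.

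As shares of the family's summed FPKM, 1140 in the KD column and 923 in the CTRL column, PCBP2 made up 46.6% and 37.1%. HNRNPK made up 35.2% and 41.3%, PCBP1 16.2% and 20.4%, and PCBP4 2.12% and 1.21%. PCBP1 and PCBP2 together, the pair that the siRNAs address, made up 62.7% and 57.5%. In counts per kilobase the shares of PCBP2 were 29.8% and 22.5% and those of PCBP1 23.4% and 27.2%. On both scales PCBP2 and PCBP4 held the larger share in the KD column, and PCBP1 and HNRNPK in the CTRL column. The family's counts were 0.176% of all counts in the KD column and 0.177% in the CTRL column.

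**Figure D2:**
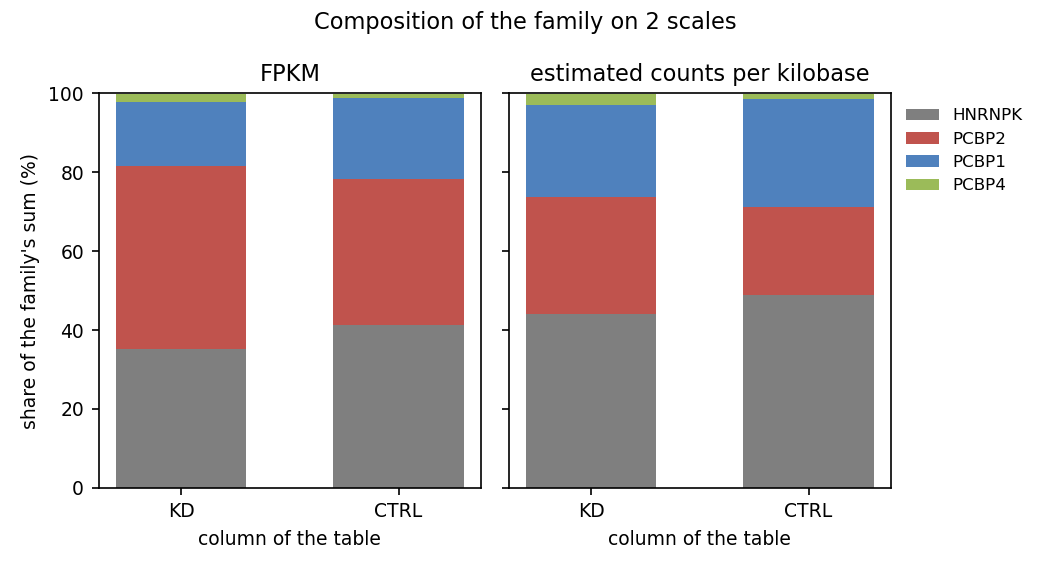
Share of each member in the family's sum (%), stacked to 100% for each column of the table, by FPKM (left) and by estimated counts per kilobase of the MANE Select transcript (right). PCBP2 was the largest part of the FPKM sum in the KD column, at 46.6%, while HNRNPK was the largest part on the right in both columns, at 43.99% and 48.8%.

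The ratio of the columns was expressed as a log2 ratio of FPKM + 1, labelled KD over labelled CTRL, and a value of 1 or more in either direction was counted as past the fold. Over the 13741 genes whose FPKM averaged 1 or more, 8.51% were past the fold upward, 3.27% were past it downward and the median was 0.01. PCBP4 was the 1 of 4 members measured above this level that was past the fold, at 1.05, and 0 members were past it downward. PCBP2 was at 0.63, a 1.55-fold higher FPKM. HNRNPK was at 0.07 and PCBP1 at -0.03. Among the 13741 log2 ratios, PCBP4 lay at percentile 92.3, PCBP2 at 82.1, HNRNPK at 53.7 and PCBP1 at 46.7.

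The estimated counts gave the same order of members but another zero. As shares of the column totals, counts of PCBP1 gave a log2 ratio of -0.25, with an exact binomial 95% interval of -0.32 to -0.19. PCBP2 was at 0.37 (0.32 to 0.42) and HNRNPK at -0.19 (-0.22 to -0.15). PCBP4 was at 0.90 (0.69 to 1.13), below the fold, with an interval that holds it. On this scale 6.83% of 13626 genes were past the fold upward and 9.70% downward, 0 members were past it, and the median of all genes was -0.21. HNRNPK changed sign between the scales and lay close to the median of all genes on each. The percentiles of the members moved little, to 91.6 for PCBP4, 78.3 for PCBP2, 51.2 for HNRNPK and 46.6 for PCBP1. Without any scaling the counts gave -0.02 for PCBP1, 0.60 for PCBP2, 1.13 for PCBP4 and 0.04 for HNRNPK, close to the FPKM values, and over all genes the log2 ratio of FPKM differed from that of unscaled counts by a median of -0.01. The estimated counts were therefore on a scale close to that of FPKM before division by their totals.

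**Figure D3:**
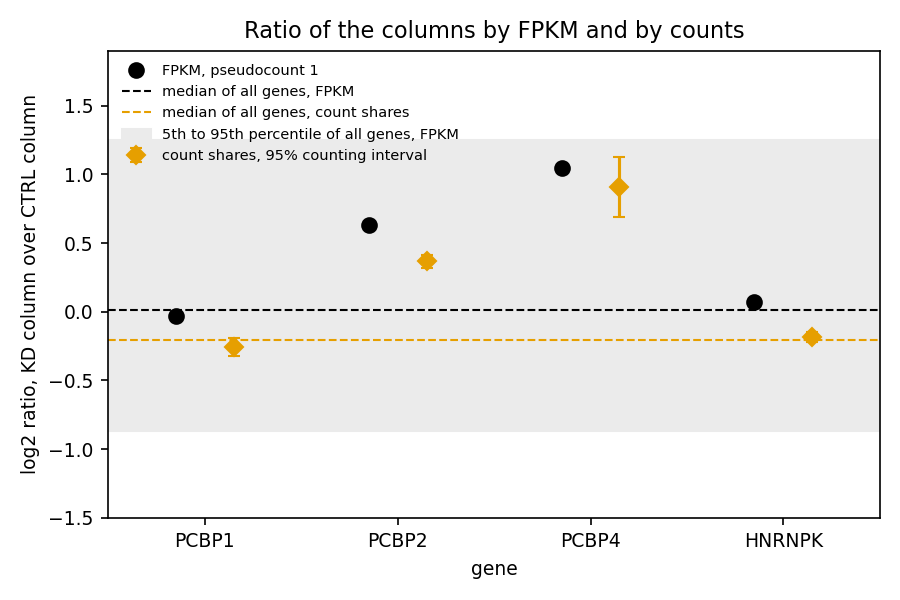
Log2 ratio, KD column over CTRL column, for the 4 members averaging 1 FPKM or more, by FPKM with a pseudocount of 1 (circles, no error available) and by shares of the column's counts (diamonds, with exact binomial 95% intervals for counting error). Dashed lines are the medians of all genes, 0.01 and -0.21, and the grey band spans the 5th to 95th percentile by FPKM, -0.87 to 1.25, which holds all 4 members.

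Ratios between members do not depend on the column totals. In counts, the log2 ratio of PCBP1 minus that of PCBP2 was -0.62, with a 95% interval of -0.70 to -0.54 (Woolf, counting error only). PCBP2 was 2.88 times PCBP1 by FPKM in the KD column and 1.82 times in the CTRL column. The 2 genes that the siRNAs address together thus had unlike ratios. Taken as counted fragments, the estimates gave a Woolf interval that leaves out 0. Whether the 2 ratios differ beyond the spread between cell pools could not be tested. PCBP2 minus PCBP4 was -0.54 (-0.76 to -0.32), and PCBP4 exceeded HNRNPK by 1.09 (0.87 to 1.31). PCBP2 exceeded HNRNPK by 0.55 (0.49 to 0.61). For PCBP1 minus HNRNPK the difference was -0.07 (-0.15 to 0.01), an interval that holds 0.

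The members differ in base composition, and over all genes the log2 ratio moved with GC content. Among genes ranked by the GC content of their longest transcript, its median was -0.28 in the lowest of 10 groups of equal size and 0.69 in the highest. HNRNPK (41.6% GC) fell in group 3, PCBP2 (48.8%) in group 6, PCBP1 (54.9%) in group 8 and PCBP4 (60.3%) in group 9. The median log2 ratio of these groups was -0.19, 0.01, 0.27 and 0.38, so PCBP1 was below the median of its group and the other 3 were above theirs. Within these groups, PCBP4 lay at percentile 87.8, PCBP2 at 85.6, HNRNPK at 72.8 and PCBP1 at 30.2. In PCBP4's group, 13.5% of 1330 genes were past the fold upward. After a joint trend in GC and length was taken out, PCBP4 was at 0.57, under the fold, with 0.62 for PCBP2, 0.23 for HNRNPK and -0.28 for PCBP1. The part of base composition in these ratios was not tested.

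**Figure D4:**
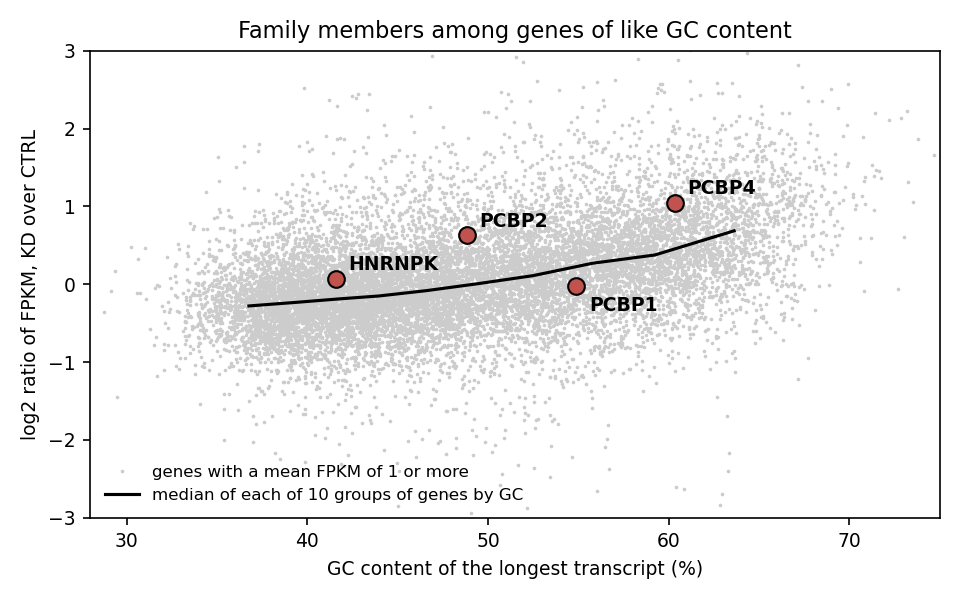
Log2 ratio of FPKM (labelled KD over labelled CTRL) against the GC content of each gene's longest transcript (%), with 1 grey dot per gene, the medians of 10 groups of genes by GC as a line and the 4 measured members in red. The line rises from -0.28 to 0.69, PCBP1 lies below it and the other members above it; 48 genes beyond -3 or 3 are outside the axis.

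Genes that overlap the members bear on the counts, because the sources used here do not say that strand was used, and without it reads from overlapping genes cannot be told apart. Exons of the antisense gene PCBP1-AS1 cover 1264 of the 1727 bases of PCBP1 (73.2%) on the opposite strand in GENCODE 44. PCBP1-AS1 stood at 9.26 FPKM (KD) and 11.7 FPKM (CTRL). Its 104 and 126 counts were 2.86% and 3.41% of those of PCBP1. These counts are for the whole of PCBP1-AS1, not for the overlap alone, so they set no limit on reads given to the wrong gene. How many reads of the overlap were so given was not tested. Exons of MAP3K12, a kinase gene on the opposite strand, cover 18.8% of PCBP2's exonic bases, and it had 101 and 84.2 counts. PRR13, whose row shares PCBP2's locus, had an FPKM of 346 and 423 and a log2 ratio of -0.29, so the 2 abundant genes of that locus had ratios of opposite sign. The counts of both were not whole in either column, 8482.93 and 5604.71 for PCBP2 and 3246.72 and 3860.48 for PRR13. Near PCBP4, the aminoacylase gene ACY1 had an FPKM of 40.9 and 50.3 (log2 ratio -0.29), the hydrolase gene ABHD14B had 57.8 and 39.8 (0.53) and ABHD14A had 9.04 and 6.30 (0.46). ABHD14B shares 1.39% of PCBP4's exonic bases. Both ABHD14 genes and PCBP4 were higher in the KD column, and ACY1 was lower.

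Other genes with KH domains show where the family stands among RNA-binding proteins of the same fold. Of 32 listed, 27 averaged 1 FPKM or more, and 1 of those 27 was past the fold upward and 0 downward, against 8.51% and 3.27% of all genes, with a median log2 ratio of 0.02 beside 0.01 over all genes. MEX3D, of the MEX3 family of RNA-binding ubiquitin ligases, was past it with an FPKM of 5.81 and 2.00 (log2 ratio 1.18). It has 69.1% GC and lies in the highest GC group, where 32.4% of genes were past the fold upward, and it was at 0.20 with the GC and length trend taken out, which for the listed genes was tried after their values were seen. HDLBP, or vigilin, which has the most KH domains of the group, had an FPKM of 361 and 181 (0.997, just under the fold), but its count shares gave only 0.24. KHSRP, which promotes mRNA decay, had an FPKM of 100.2 and 65.5 (0.61), and the fragile X relatives FXR1 and FXR2 were at 0.58 and 0.51. With the trend taken out, KHSRP was at 0.22, FXR1 at 0.89 and FXR2 at 0.08. FMR1 itself was at -0.01 by FPKM but at -0.93 by count shares. At the other end, IGF2BP3, which binds and stabilises mRNAs, had an FPKM of 12.2 and 21.8 (-0.79) and ANKRD17 had 27.9 and 46.7 (-0.72). By count shares 1 gene of the 27 was past the fold upward and 2 downward, against 6.83% and 9.70% of all genes. The 2 were IGF2BP3 at -1.02 and KHDRBS3 at -1.72, the latter from only 5 and 14 counts. HNRNPK and PCBP2 were more abundant by FPKM in both columns than every other listed KH gene.

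**Figure D5:**
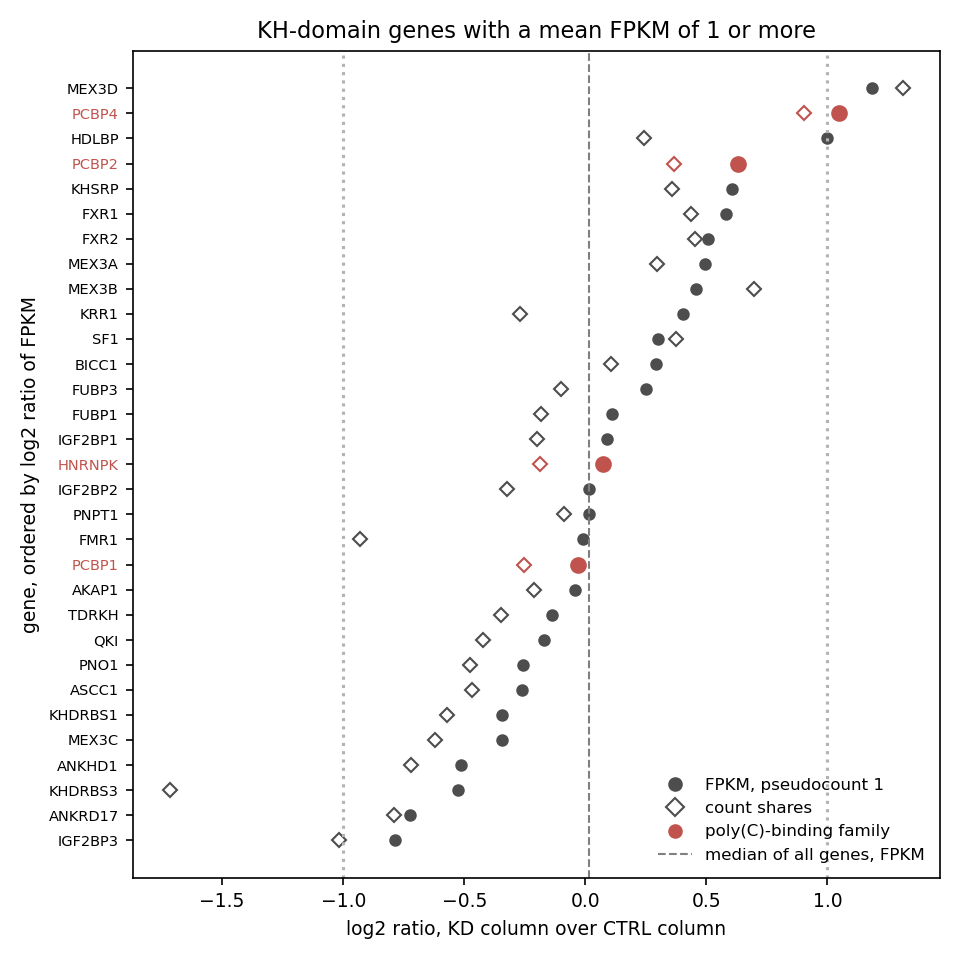
Log2 ratio (labelled KD over labelled CTRL) of the 31 KH-domain genes averaging 1 FPKM or more, ordered by FPKM (filled circles) with the value from count shares beside it (open diamonds) and the 4 measured members of the poly(C)-binding family in red. Dotted lines mark -1 and 1. MEX3D and PCBP4 were past the fold by FPKM, and the open diamonds lie mostly to the left of the circles.

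Messages known to be bound by the family were in part at or near 0. Of 16 listed, 8 averaged 1 FPKM or more, of which 1 was past the fold upward and 0 downward, against 8.51% and 3.27% of all genes, with a median of 0.39. That 1 was HBA1, the α-globin gene whose mRNA stability first defined the αCP complex, and it rested on 26 and 5 counts (FPKM 6.60 and 1.29, log2 ratio 1.73, or 0.90 with the trend taken out). HBA1 and HBA2 are near-identical copies, so their split is uncertain. COL1A1, the collagen α1(I) gene, had an FPKM of 5.96 and 2.61 (0.95), and FAM3C, a secreted factor whose translation αCP1 represses, had 20.3 and 12.3 (0.68). With the trend taken out, COL1A1 was at 0.46 and FAM3C at 0.89. CDKN1A, the p21 gene, had 72.0 and 98.3 (-0.45), and DAB2, an endocytic adaptor, had 122 and 101 (0.28). COL1A2, EPO, OPRM1 and CEBPA were listed at 0 in both columns.

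Among 11 genes tied to the iron-handling role of PCBP1 and PCBP2, 9 averaged 1 FPKM or more, and 1 of those was past the fold upward and 0 downward, against 8.51% and 3.27% of all genes, with a median of -0.15. It was DOHH, deoxyhypusine hydroxylase, an iron enzyme, with an FPKM of 15.1 and 5.71 (1.26). DOHH has 68.5% GC, in the same highest GC group as MEX3D, and was at 0.30 with the trend taken out. The ferritin chains, to which PCBP1 delivers iron, were unlike each other: FTL had an FPKM of 1379 and 792 (0.80), while FTH1 had 7974 and 8209 (-0.04). HMOX1, heme oxygenase, had 8.95 and 14.9 (-0.67), and EGLN2, a prolyl hydroxylase, had 63.7 and 39.0 (0.69). EGLN2 was past the fold by count shares, at 1.02, with an interval of 0.87 to 1.18 that holds the fold.

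Protein partners in splicing and signalling were all measured, 10 of 10, with 0 past the fold upward, 1 downward and a median of 0.03, against 8.51% and 3.27% of all genes. The 1 was U2AF2, which encodes U2AF65, the factor that binds the polypyrimidine tract beside which αCPs act. It had an FPKM of 13.0 and 85.3, from 351 and 2393 counts, and a log2 ratio of -2.63, at percentile 0.189 of all genes. By count shares U2AF2 was at -2.999, with an interval of -3.17 to -2.84. The labels name αCP1 and αCP2 as targets, not U2AF65, which the study depleted with siRNAs in separate experiments. Whether the low value of U2AF2 goes with the labelled treatment or with another pairing of names and values was not tested. SF3B2, a subunit of the U2 particle, had an FPKM of 258 and 129 (0.99). PTBP1, another pyrimidine-tract binder, had 183 and 135 (0.43), and YBX1 had 977 and 700 (0.48). PAK1, a kinase of αCP1, had 2.49 and 5.03 (-0.79), but by count shares it was past the fold at -1.37 (-1.75 to -1.01), so that 2 of the 10 were past it downward on that scale, against 9.70% of all genes.

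The genes nearest to each member in level, by Euclidean distance over log2(FPKM + 1) in the 2 columns, were named up to 3 to a member. SNRNP200, a spliceosomal helicase, and UBE2V1 were near to PCBP1, at distances of 0.023 and 0.059. DDX39B, an RNA helicase of splicing and export, GPX1 and STMN1 were nearest to PCBP2, at 0.046 to 0.087. TPM3, ATP5F1 and ARHGDIA were nearest to HNRNPK, and C9orf37, BMP2 and NPEPL1 to PCBP4. With only 2 values per gene such nearness describes level and ratio and nothing else, and none is given for PCBP3, which ties with every other gene at 0.

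The labelled cell type bears on all of these values. Of 16 erythroid and hematopoietic genes, 9 were listed at 0 in both columns, among them GATA1, TAL1 and KLF1, and 1, the embryonic globin gene HBE1, exceeded 5 FPKM in both, at 153 and 35.4. The summed FPKM of the list was 166 in the KD column and 47.8 in the CTRL column. Of 8 epithelial and mesenchymal genes, 4 exceeded 5 FPKM on both sides. These were the keratin genes KRT8 (1505 and 819), KRT18 (2309 and 1748) and KRT7 (540 and 604), and the mesenchymal gene VIM (688 and 545). EPCAM had 3.94 and 3.26 and FN1 had 4.94 and 4.05, while KRT19 was listed at 0 and CDH1 was under 1. The summed FPKM of this list was 5051 and 3724. Lineage-defining erythroid genes were thus listed at 0 in a table labelled as K562, and the part of cell type in the family's levels and ratios was not tested. A change in RNA per cell and a change in the cells sampled cannot be told apart in such bulk values.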

How the data were processed

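The authors prepared RNA-seq libraries with a TruSeq kit, sequenced 100-nt paired ends, mapped them with TopHat 1.4.1 to hg19 and Ensembl release 65, and computed FPKM with Cuffdiff 2.2.0. The deposited table gives 1 FPKM value and 1 estimated count per gene and group, and how pools were combined is not given in the sources used here. The authors' own columns of fold change, p-value and FDR, and 2 columns of average FPKM, were not used. Members and gene lists were chosen with earlier results of these data known.

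Log2 ratios used a pseudocount of 1 and genes averaging 1 FPKM or more. Estimated counts were rounded for the count-share ratios and intervals of named genes and for those between members. They were not rounded for the count shares of all genes or for percentiles. With 1 value per group no test was run. Intervals take the estimates as counted fragments and cover counting error only. GC content and length came from each gene's longest GENCODE 44 transcript (13298 of 13741 genes). Genes were named if they were members, shared a member's locus, were its pseudogenes, stood on a list or were the 3 nearest in level; not all of them are reported here. Functions were checked on simulated data. Python 3.11.15, numpy 2.4.6, scipy 1.17.1 and biopython 1.88 were used.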

Additional observations from a re-analysis of the deposited data

How the results depend on the processing

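The values were recomputed with a pseudocount of 0.1, without a filter or with a mean FPKM of at least 5, with counts as column shares, over median-of-ratios size factors or unscaled (added after seeing the data), centred on the median of all genes, with a GC and length trend removed, per kilobase of annotated length, and with all rows of a symbol summed. Of 68 recomputed values 45 stayed within their limit and 23 moved. Of the 45, 12 came from summing all rows of a symbol, which changes nothing because each member had 1 row. A change of sign was counted only for values past the fold, and 0 of these showed one. HNRNPK, under the fold, went from 0.07 to -0.19 with count shares. With count shares PCBP1 stood at -0.25, PCBP2 at 0.37 and HNRNPK at -0.19 (log2), the median of the iron list was -0.40, and 1322 genes were past the fold downward in place of 450. Size factors gave 0.58 for PCBP2 and 0.022 for HNRNPK. Removal of the trend gave -0.28 for PCBP1, 0.57 for PCBP4 and 0.23 for HNRNPK, and, added after seeing the data, 0.20 for MEX3D, 0.30 for DOHH and -3.13 for U2AF2. Genes past the fold downward numbered 791 with the pseudocount of 0.1 and 237 at a mean FPKM of at least 5, where fewer genes are tested. Per kilobase of annotated length, the family shares in the KD and CTRL columns were 23.4% and 27.2% for PCBP1, 29.8% and 22.5% for PCBP2, 2.83% and 1.47% for PCBP4, and 43.99% and 48.8% for HNRNPK. Beyond the construction of each alternative, the cause was not tested. No paired analysis was possible because each group has 1 value per gene, and for the same reason no pool could be left out.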
